A study of Mus musculus with 6 samples.

Results

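Genes encoding the GABA rho and glycine receptor subunits were followed in retinal mRNA of Cyfip2 conditional knockout and wild-type mice. The rho genes are Gabrr1, Gabrr2 and Gabrr3, and the glycine receptor genes are Glra1, Glra2, Glra3, Glra4 and Glrb. These 8 genes were chosen by their symbols, and all 8 were found among the 24346 symbols measured. The data comprised 3 libraries labelled Cyfip2 CKO (conditional knockout) and 3 labelled Cyfip2 WT (wild type), each made from total RNA of retina and expressed as FPKM, the sequenced fragments of a gene divided by transcript length and by the mapped fragments of the library. None of the sources used here gives the Cre driver, the cells in which the deletion took place, the strain, the sex, the age or any pooling of animals. Whether the libraries of a group came from separate animals is not stated either, so the p-values refer to the spread between libraries, and this spread may be technical.

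The rho and glycine receptor subunits belong to the same superfamily of ligand-gated chloride channels as the GABA-A receptor. The rho subunits form receptors once called GABA-C, which give slow and sustained GABA currents that are insensitive to bicuculline; in the mammalian retina they are known above all from bipolar cells, where they mediate feedback from amacrine cells onto the axon terminal. Glycine receptors are built from alpha subunits, which bind the transmitter and form the channel, together with the beta subunit, which ties the receptor to the scaffold protein gephyrin. In the retina glycine is released by amacrine cells onto bipolar, amacrine and ganglion cells.

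Cyfip2, the deleted gene, was measured at 8.33, 10.2 and 11.2 FPKM in CKO libraries 1 to 3, and at 35.5, 63.1 and 62.3 FPKM in WT libraries 1 to 3, so every library matched its label, with WT 1 the lowest of the WT group. Pearson's r of log2(FPKM + 1) between libraries lay between 0.968 and 0.979. No receptor gene among the 8 differed between CKO and WT retina past the threshold of 0.05 (limma adjusted p, over all 13215 genes whose mean reached 1 FPKM). All 8 passed that filter, and 0 of 8 were called, where 0.0227% of all tested genes were. At an unadjusted p under 0.05 the count was also 0 of 8, beside 7.88% of all tested genes. Of the 8 log2 fold changes, 7 were below 0 and 1 was above 0, with a median of -0.03, against -0.0016 over all tested genes. Every 95% interval lay within 1.5-fold in both directions on the FPKM + 1 scale, which understates the change of a low gene such as Glra4. In bulk RNA, fewer cells of a type and less RNA per cell cannot be told apart.

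**Figure D1:**
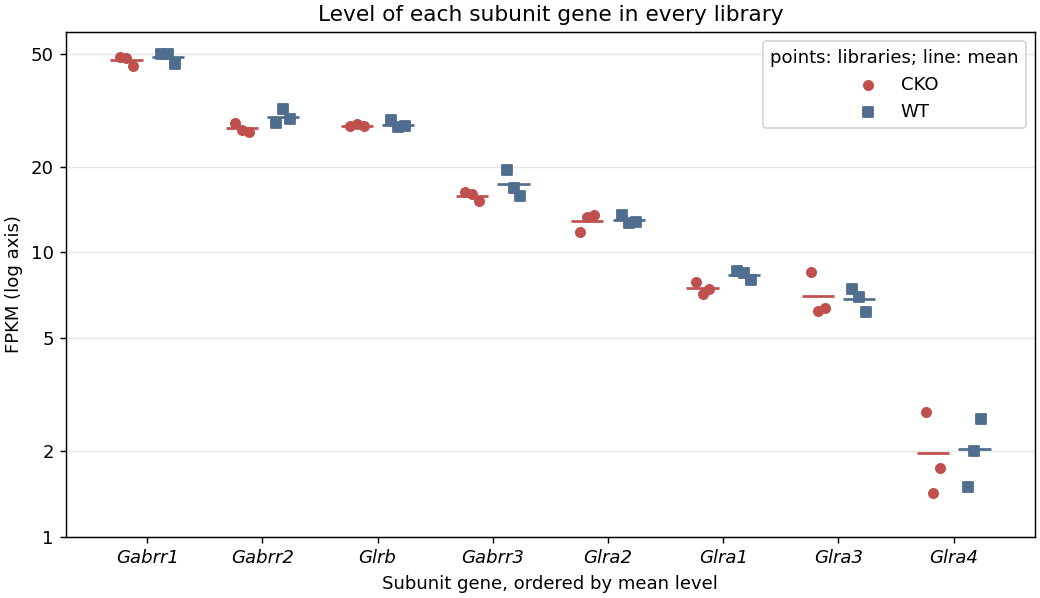
FPKM (log axis) of each subunit gene in the 3 CKO libraries (circles, left) and the 3 WT libraries (squares, right), with a line at each group mean. Gabrr1 stood highest, between 45.3 and 49.7 FPKM, and Glra4 lowest, between 1.42 and 2.74 FPKM; for Gabrr2 and Glra1 alone the CKO points all lay below the WT points.

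Gabrr1, which encodes rho1, was the most abundant of the 8 transcripts. It was at 48.5, 48.3 and 45.3 FPKM in the CKO libraries and at 49.7, 49.7 and 46.0 FPKM in the WT libraries, so the groups overlapped, with the third library the lowest in each. Its level ranked 1673 among the 13215 tested genes. The log2 fold change was -0.03 (SE 0.05, 95% interval -0.15 to 0.09, limma adjusted p = 0.925). On the FPKM + 1 scale that interval runs from -10.1% to 6.36%.

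Gabrr2, which encodes rho2, was at 28.6, 26.97 and 26.6 FPKM in the CKO libraries and at 28.6, 31.9 and 29.4 FPKM in the WT libraries. All CKO values lay below all WT values, but the gap between the highest CKO and the lowest WT library was 0.043 FPKM. The CKO mean was 27.4 ± 1.06 FPKM and the WT mean 29.98 ± 1.74 FPKM (SD, n = 3 each), and CKO held 91.3% of the WT level. The log2 fold change was -0.13 (SE 0.06, 95% interval -0.26 to 0.0096, unadjusted p = 0.0643, limma adjusted p = 0.66), short of the threshold.

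Gabrr3, which encodes rho3, was at 16.3, 16.1 and 15.2 FPKM in the CKO libraries and at 19.5, 16.8 and 15.7 FPKM in the WT libraries. WT 1 stood above all other libraries, and WT 3 lay inside the CKO range. The log2 fold change was -0.12 (SE 0.08, 95% interval -0.31 to 0.07, limma adjusted p = 0.775) and came to -0.04 without WT 1. The noncoding gene 1700022E09Rik lies on the other strand and shares 279 bp of exon with Gabrr3, whose exons cover 4271 bp. It was listed at 1.61 FPKM in WT 1 and 1.47 FPKM in WT 2, the libraries with the highest Gabrr3, and at 0 in WT 3 and all CKO libraries. The sources used here do not say how strand was used in counting, so reads of this stretch cannot be assigned to either gene, and its part in the Gabrr3 values was not tested.

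Gabrr2 and Gabrr1 are neighbours on mouse chromosome 4 in GENCODE M21 (GRCm38), both on the plus strand. Gabrr2 spans 33062999 to 33095865 and Gabrr1 spans 33132521 to 33163588, with 36.7 kb and 0 annotated genes between them. Gabrr3 lies apart, on chromosome 16 from 59407332 to 59464504 on the plus strand. The promoters of the 2 neighbours, the most abundant rho genes, are shown because the genes lie side by side and their transcripts differed 1.67-fold in level. RefSeq (GRCm38.p6) gives 250 bases before and 50 bases after the transcript start, printed 5′ to 3′, with matches to the searched motifs in capitals.
Gabrr1, chr4:33132306-33132605, plus strand: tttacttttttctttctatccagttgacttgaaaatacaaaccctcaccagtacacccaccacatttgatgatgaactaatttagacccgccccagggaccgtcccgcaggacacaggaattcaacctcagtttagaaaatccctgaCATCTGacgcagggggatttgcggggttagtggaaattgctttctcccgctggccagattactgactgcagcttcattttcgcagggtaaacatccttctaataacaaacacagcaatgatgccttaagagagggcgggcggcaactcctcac
Gabrr2, chr4:33062862-33063161, plus strand: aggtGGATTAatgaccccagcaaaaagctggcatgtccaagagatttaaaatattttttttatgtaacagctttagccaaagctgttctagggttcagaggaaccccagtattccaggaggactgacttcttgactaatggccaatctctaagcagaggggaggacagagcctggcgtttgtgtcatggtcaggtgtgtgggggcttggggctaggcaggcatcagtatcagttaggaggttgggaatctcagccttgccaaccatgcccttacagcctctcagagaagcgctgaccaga
The motifs searched on both strands were TAATCC, the core bound by the bipolar and photoreceptor factors OTX2 and CRX, and the E-box CAGATG. The first matched in Gabrr2 as its reverse complement GGATTA, and the E-box matched in Gabrr1 as its reverse complement CATCTG. Promoters were found for 7 of the 8 genes. Of these 7, Gabrr2 was the 1 with TAATCC and Gabrr1 the 1 with CAGATG. Of all 32851 promoters, 7.06% held TAATCC and 17.2% held CAGATG. A match is a description of the letters and no evidence of binding.

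Glrb, the beta subunit shared by synaptic glycine receptors and mutated in the spastic mouse, was the steadiest of the 8. It was at 27.9, 28.2 and 27.7 FPKM in the CKO libraries and at 29.1, 27.5 and 27.8 FPKM in the WT libraries. The CKO values lay within the WT range. Its SD over the 6 libraries was 0.028 on the log2(FPKM + 1) scale, and 0.984% of tested genes had a smaller one. The log2 fold change was -0.0096 (SE 0.05, 95% interval -0.12 to 0.1, limma adjusted p = 0.975).

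Glra2 was the most abundant alpha subunit gene. Glycine receptors with alpha2 are widespread on amacrine cells and also serve in the immature nervous system. Glra2 was at 11.8, 13.3 and 13.5 FPKM in the CKO libraries and at 13.6, 12.7 and 12.8 FPKM in the WT libraries, and CKO 1 was the lowest. The groups overlapped, with a log2 fold change of -0.02 (SE 0.07, 95% interval -0.18 to 0.15, limma adjusted p = 0.972).

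Glra1, the alpha1 subunit of the adult spinal cord and of fast glycine synapses on OFF bipolar and ganglion cells, was at 7.89, 7.13 and 7.42 FPKM in the CKO libraries and at 8.597, 8.44 and 7.97 FPKM in the WT libraries. All CKO libraries lay below all WT libraries, with a gap of 0.0812 FPKM. The mean was 7.48 ± 0.387 FPKM for CKO and 8.34 ± 0.324 FPKM for WT (SD, n = 3 each), and CKO held 89.7% of the WT level. The log2 fold change was -0.14 (SE 0.07, 95% interval -0.31 to 0.03, unadjusted p = 0.0933, limma adjusted p = 0.709), the lowest point estimate among the 8 and short of the threshold. Glra1 and Cyfip2 lie on the same chromosome, 11, at a distance of 9.2 Mb. Glra1 spans 55514238 to 55608198 on the minus strand.

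Glra3, an alpha subunit of glycine synapses in the inner retina, was at 8.55, 6.24 and 6.36 FPKM in the CKO libraries and at 7.42, 6.98 and 6.16 FPKM in the WT libraries. CKO 1 was the highest library and the other CKO libraries lay near WT 3. Glra3 was the 1 gene with a fold change above 0, at 0.03 (SE 0.12, 95% interval -0.26 to 0.31, limma adjusted p = 0.972), and its sign turned without CKO 1 (-0.1) and without WT 3 (-0.04).

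Glra4, an alpha subunit gene that is intact in the mouse while its human counterpart is regarded as a pseudogene, was the scarcest of the 8. Its level was 2.74, 1.42 and 1.75 FPKM in the CKO libraries and 1.49, 1.995 and 2.595 FPKM in the WT libraries. The spread within each group was wide, with the highest library at 1.93 times the lowest, and the groups overlapped. The log2 fold change was -0.04 (SE 0.2, 95% interval -0.49 to 0.42, limma adjusted p = 0.979), so a change of up to 34% upwards or -29% downwards on the FPKM + 1 scale lies inside the interval. BC065397, annotated on the other strand inside the Glra4 locus, shares 0 bp of exon with it and was at 1.001 to 1.43 FPKM. Glra4 and Glra2 both lie on the minus strand of chromosome X, Glra4 from 136757674 to 136780141 and Glra2 from 165129017 to 165327393.

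**Figure D2:**
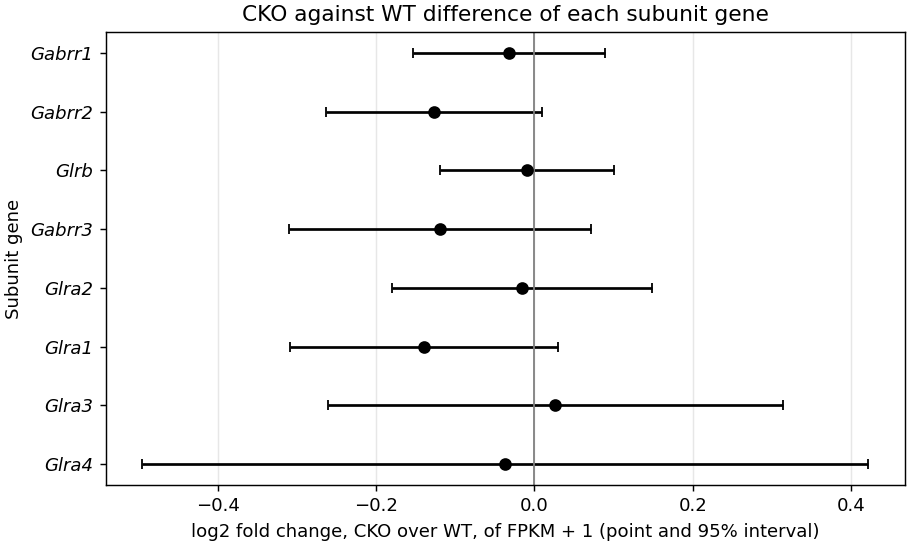
Log2 fold change of FPKM + 1, CKO over WT, for each subunit gene (points) with its 95% interval from limma (bars). All 8 intervals cross 0, and they widen from Glrb (-0.12 to 0.1) to Glra4 (-0.49 to 0.42).

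The order of the levels, per transcript length, was Gabrr1, Gabrr2, Glrb, Gabrr3, Glra2, Glra1, Glra3 and Glra4. Most neighbours in this order were separated in every library. Gabrr1 exceeded Gabrr2 by 1.67-fold, Glrb exceeded Gabrr3 by 1.69-fold, Gabrr3 exceeded Glra2 by 1.28-fold, Glra2 exceeded Glra1 by 1.64-fold and Glra3 exceeded Glra4 by 3.48-fold, each with ranges over the 6 libraries that did not touch. Gabrr2 and Glrb could not be ordered, since Gabrr2 was the higher in 3 of 6 libraries and their means differed 1.02-fold. Glra1 and Glra3 also overlapped in range, with Glra1 the higher in 5 of 6 libraries and CKO 1 the exception.

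Within the rho family, the make-up of the summed FPKM varied little. The rho genes together were at 93.4, 91.4 and 87.0 FPKM in the CKO libraries and at 97.8, 98.4 and 91.1 FPKM in the WT libraries. Gabrr1 made up 52.0%, 52.9% and 52.1% of this sum in the CKO libraries and 50.8%, 50.5% and 50.5% in the WT libraries, so its share was higher in every CKO library. Gabrr2 made up 29.5% to 30.6% in CKO and 29.2% to 32.5% in WT, and Gabrr3 17.4% to 17.6% in CKO and 17.1% to 19.9% in WT. The Gabrr1 to Gabrr2 ratio was 1.73 ± 0.0515 in CKO and 1.62 ± 0.104 in WT (SD, n = 3 each). The difference of 0.1 on the log2 scale did not pass (exact two-sided permutation test, p = 0.3, and 0.75 adjusted over 5 ratios); 3 against 3 libraries cannot go below p = 0.1.

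Within the glycine receptor family, Glra2 made up 38.1%, 47.4% and 46.6% of the summed alpha FPKM in the CKO libraries and 43.6%, 42.2% and 43.4% in the WT libraries. CKO 1 stood below and the other CKO libraries above all WT libraries. The share of Glra1 was 25.5%, 25.3% and 25.5% in the CKO libraries and 27.7%, 28.02% and 26.98% in the WT libraries, lower in every CKO library. Shares of Glra3 spanned 21.9% to 27.6% in CKO and 20.9% to 23.9% in WT, and those of Glra4 5.05% to 8.85% in CKO and 4.81% to 8.78% in WT. The shares themselves were not tested.

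**Figure D3:**
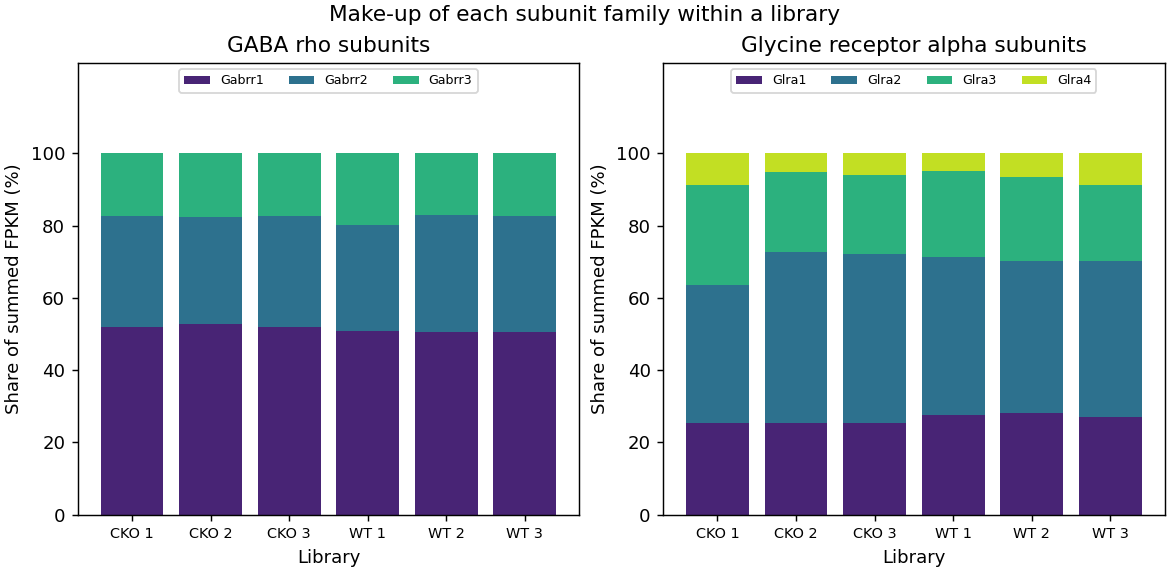
Share of each gene in the summed FPKM of the rho genes (left) and of the glycine receptor alpha genes (right), 1 stacked bar per library, CKO 1 to 3 then WT 1 to 3. Gabrr1 takes between 50.5% and 52.9% of the rho sum in every library, and in CKO 1 the Glra2 share is smallest (38.1%) and the Glra3 share largest (27.6%).

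Ratios between alpha genes did not separate the genotypes. Glra1 over Glra2 was 0.583 ± 0.0734 in CKO and 0.64 ± 0.0219 in WT (exact permutation p = 0.4, and 0.75 adjusted over the 5 ratios; SD, n = 3 each). Glra3 over Glra2 was 0.554 ± 0.147 in CKO and 0.526 ± 0.0391 in WT (exact permutation p = 1), and the wide CKO spread came from CKO 1, at 0.724 against 0.468 and 0.47 in the other CKO libraries. The alpha genes summed were close to the beta gene in level, at a ratio of 1.05 ± 0.0576 in CKO and 1.08 ± 0.0167 in WT (exact permutation p = 0.6). The rho genes summed stood at 3.08 ± 0.143 times the alpha genes in CKO and 3.17 ± 0.093 times in WT (exact permutation p = 0.5). An mRNA ratio does not give the subunit make-up of receptors, which was not measured.

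In CKO, 2 of the 8 genes, Gabrr2 and Glra1, were below WT without overlap of the groups, beside 6.95% of all tested genes. Above WT without overlap were 0 of 8, beside 6.96%. With each library left out in turn, Gabrr2 stayed between -0.16 and -0.08 and Glra1 between -0.17 and -0.11 on the log2 scale. Unadjusted p for Gabrr2 was 0.0462 without CKO 1 and 0.0429 without WT 1, but the limma adjusted p was 0.705 without CKO 1 and 0.643 without WT 1. Gabrr1 and Gabrr3 were also below 0 in each of these fits, though Gabrr1 came to -0.0009 without CKO 3. The other genes took both signs. Glra2 turned to 0.04 without CKO 1 and 0.01 without WT 1, and Glrb to 0.01 without WT 1. Glra3 turned to -0.1 without CKO 1 and -0.04 without WT 3. Glra4 turned to 0.1 without CKO 2, 0.0074 without CKO 3 and 0.1 without WT 3.

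**Figure D4:**
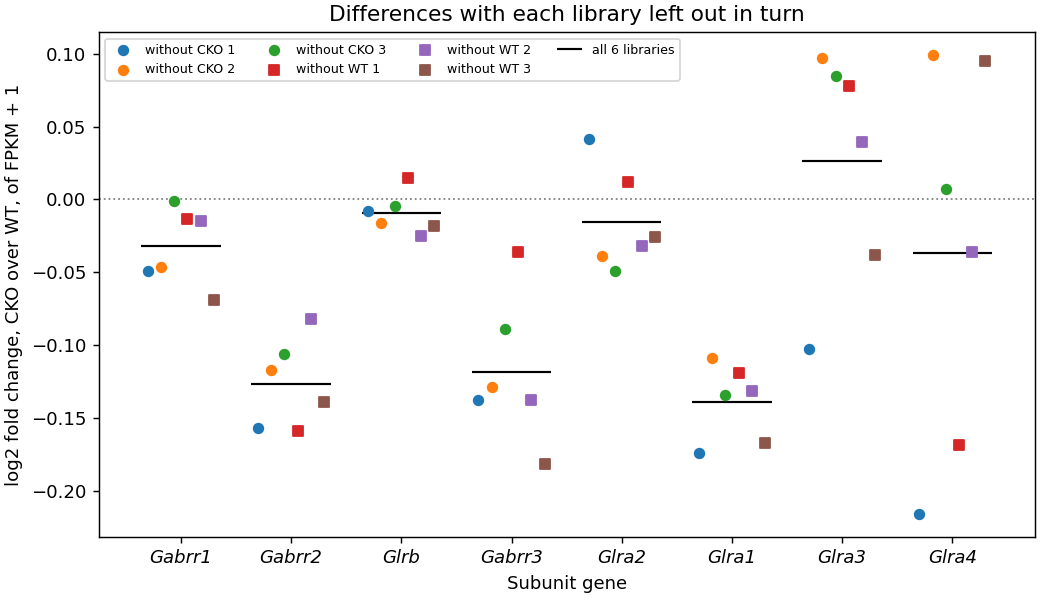
Log2 fold change of FPKM + 1, CKO over WT, for each subunit gene with all 6 libraries (line) and with each library left out in turn (circles for CKO, squares for WT libraries). Gabrr1, Gabrr2, Gabrr3 and Glra1 stay below 0 throughout, and Glra4 moves most, between -0.22 and 0.1.

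The other subunits of the GABA-A receptor gave 0 calls among 11 tested genes of 16. At an unadjusted p under 0.05 there were 3 of 11, beside 7.88% of all tested genes. These were Gabrb1 and Gabra4 below WT and Gabra3 above WT. Gabrb1, a beta subunit, was at 1.28, 2.06 and 1.27 FPKM in the CKO libraries and at 2.34, 3.44 and 2.59 FPKM in the WT libraries (log2 fold change -0.58, limma adjusted p = 0.467). Gabra4 was at 2.24 ± 0.319 FPKM in the CKO libraries and 3.07 ± 0.334 FPKM in the WT libraries, and Gabra3 at 15.0 ± 0.809 FPKM in the CKO libraries and 13.3 ± 0.232 FPKM in the WT libraries (SD, n = 3 each). The list had 3 log2 fold changes above 0 and 8 below 0, with a median of -0.1. Gabra5, Gabre, Gabrp and Gabrq were below the filter and Gabra6, a cerebellar subunit, was listed at 0 throughout.

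Among the genes that anchor inhibitory receptors, Gphn, which encodes the gephyrin scaffold that holds glycine receptors through the beta subunit, was at 26.7, 28.4 and 28.05 FPKM in the CKO libraries and at 28.5, 30.4 and 28.9 FPKM in the WT libraries (log2 fold change -0.08, limma adjusted p = 0.775). Gphn was named after its values were seen, for its tie to Glrb. Of 12 tested anchoring genes, 0 were called, 7 lay above 0 and 5 below 0 (median 0.03). An unadjusted p under 0.05 was found for 1 of 12, near the share of 7.88% over all tested genes. That gene was Mdga1, which encodes a suppressor of neuroligin binding, at 8.05 ± 0.343 FPKM in the CKO libraries and 6.42 ± 0.766 FPKM in the WT libraries (SD, n = 3 each), with a log2 fold change of 0.29 and a limma adjusted p of 0.524. The adhesion molecule gene Igsf9b was at 6.99 FPKM in the CKO libraries and 6.20 FPKM in the WT libraries, and the exchange factor gene Iqsec3 at 64.8 FPKM in the CKO libraries and 68.4 FPKM in the WT libraries, both with an unadjusted p above 0.05.

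The genes for synthesis, vesicle loading, uptake and breakdown of GABA and glycine had 0 calls among 10 tested. Of these genes, 9 lay above 0 and 1 below 0 (median log2 fold change 0.11). An unadjusted p under 0.05 was found for 4 of 10, all above WT, beside 7.88% of all tested genes in either direction. Gad1, a GABA-synthesizing enzyme, was at 124.0, 121.6 and 121.2 FPKM in the CKO libraries and at 109.6, 112.05 and 106.9 FPKM in the WT libraries, with every CKO library above every WT library. It had a log2 fold change of 0.16 (limma adjusted p = 0.395) and Gad2, the other such enzyme, of 0.22 (0.467). Slc32a1, the vesicular carrier of both transmitters, lay at 0.19 (limma adjusted p = 0.48). Slc6a5, the neuronal glycine transporter, was at 5.22 ± 0.85 FPKM in the CKO libraries and 4.84 ± 0.479 FPKM in the WT libraries (SD, n = 3 each). Slc32a1 and Slc6a5 were named after their values were seen. The difference between this list and the receptor genes was not tested.

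Genes of chloride handling, which sets the direction of the current through these channels, had 0 calls among 9 tested. Of these, 4 lay above 0 and 5 below 0 (median -0.03). An unadjusted p under 0.05 was found for 2 of 9, beside 7.88% of all tested genes. Stk39, a kinase gene with an unadjusted p of 0.0432 and a limma adjusted p of 0.613, was at 20.5 ± 1.32 FPKM in the CKO libraries and 22.9 ± 0.902 FPKM in the WT libraries, and the cotransporter gene Slc12a7 at 2.77 ± 0.148 FPKM in the CKO libraries and 3.32 ± 0.0521 FPKM in the WT libraries (SD, n = 3 each). Slc12a5, the neuronal chloride extruder KCC2, was at 171.2 ± 4.24 FPKM in the CKO libraries and 168.8 ± 6.12 FPKM in the WT libraries; it was named after its values were seen.

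**Figure D5:**
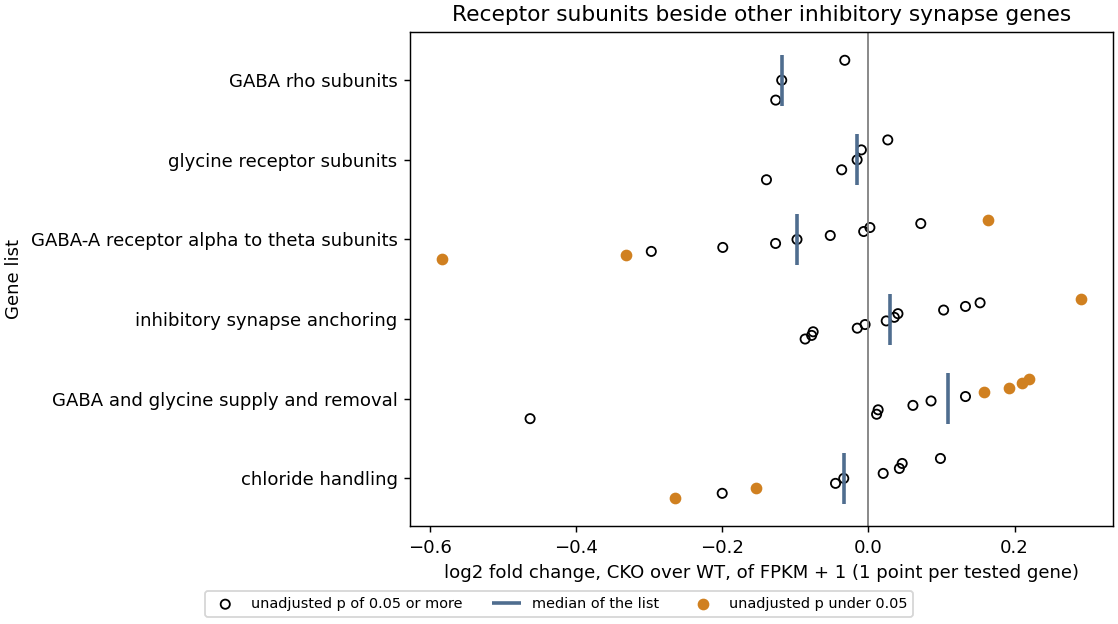
Log2 fold change of FPKM + 1, CKO over WT, for each tested gene of 6 lists (points; filled at an unadjusted p under 0.05) with the list median (vertical bar). Points of the GABA rho and glycine receptor lists lie between -0.14 and 0.03, and 4 filled points of the GABA and glycine supply list lie above 0.

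Markers of the cells that carry these receptors had log2 fold changes of both signs. No tested marker gene was called, and the sums of the marker lists were not tested. Among all tested genes, 6.95% were lower and 6.96% higher in CKO without overlap of the groups. By the same measure, 1 of 6 rod bipolar markers was higher and 1 lower, and 1 of 6 cone bipolar markers was lower and 0 higher. Of the amacrine markers 6 of 7 were higher and 0 lower, and of the ganglion cell markers 5 of 8 were lower and 0 higher. These shares are per gene and give no reference for the sums of lists. The 6 rod bipolar markers summed to 404.9 to 417.3 FPKM in CKO and 434.9 to 461.4 FPKM in WT. Pcp2, a Purkinje and bipolar cell protein gene, accounted for most of this sum and was at 260.4, 253.8 and 266.4 FPKM in the CKO libraries and at 282.6, 319.7 and 304.0 FPKM in the WT libraries. The other 5 rod bipolar markers had log2 fold changes above 0, among them Prkca, the protein kinase C of rod bipolar cells, at 52.4 FPKM in both groups. Pcp2 and Prkca were named after their values were seen. Cone bipolar markers, 6 of 6 below 0, summed to 175.3 to 182.6 FPKM in CKO and 185.2 to 201.9 FPKM in WT. Amacrine markers, 7 of 7 above 0, summed to 446.5 to 463.3 FPKM in CKO and 384.8 to 406.6 FPKM in WT. This list shares Gad1 and Slc6a9 with the GABA and glycine supply list, so these lists are not separate observations. Ganglion cell markers, 7 of 8 below 0, summed to 602.1 to 623.9 FPKM in CKO and 652.1 to 703.2 FPKM in WT. Nefl, a large term of this sum, was at 234.8, 214.6 and 213.9 FPKM in the CKO libraries. In the WT libraries Nefl was at 266.7, 285.5 and 245.7 FPKM. Sncg, another large term, had a mean of 216.4 FPKM in CKO and 215.3 FPKM in WT. Nefl and Sncg were also named after their values were seen. The part of any of these marker lists in the receptor values was not tested. The 4 skeletal muscle markers summed to 1.89 to 3.19 FPKM in CKO and 2.09 to 2.48 FPKM in WT. The 5 oligodendrocyte markers summed to 9.88 to 11.6 FPKM in CKO and 11.1 to 11.98 FPKM in WT, and the 5 pigment epithelium markers to 7.35 to 11.5 FPKM in CKO and 4.61 to 10.8 FPKM in WT.

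Further marker lists, though not every one, summed as follows. Horizontal cell markers lay at 36.8 to 38.0 FPKM in CKO and 42.0 to 50.7 FPKM in WT, and cone markers at 312.1 to 347.8 FPKM in CKO and 360.3 to 407.6 FPKM in WT. ON bipolar markers summed to 278.5 to 288.6 FPKM in CKO and 293.9 to 302.6 FPKM in WT, although 3 of the 5 had log2 fold changes above 0 and the median was 0.005. Horizontal cell markers had 4 of 5 and cone markers 5 of 5 below 0. Muller glia markers (1238 to 1421 FPKM in CKO, 1222 to 1329 FPKM in WT), microglia markers (17.4 to 19.1 FPKM in CKO, 17.3 to 24.3 FPKM in WT) and endothelial markers (95.7 to 99.9 FPKM in CKO, 93.2 to 101.9 FPKM in WT) overlapped between the groups.

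The 3 receptor genes that varied most over the libraries were Glra4, Glra3 and Gabrr3, and for each the tested gene with the nearest pattern was sought by the root mean square difference of mean-centred log2(FPKM + 1) over the 6 libraries. For Gabrr3 this was Midn, which encodes the nuclear protein midnolin, at a distance of 0.013, and both were highest in WT 1. For Glra3 it was Pard6b, a cell polarity gene, at 0.03, and both were highest in CKO 1. For Glra4 it was Tnip2, a regulator of NF-kB signalling, at 0.076. These are the closest of 13214 genes over 6 libraries, given as a description.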

How the data were processed

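Retinal mRNA was measured in 6 libraries. Per the labels' protocols, RNA was isolated with TRIzol and libraries were prepared with a TruSeq stranded mRNA kit. The deposited values are FPKM per gene symbol, a unit judged from the values and from Cufflinks 2.2.1, which the submitters' processing notes name with TopHat2 2.0.13, Bowtie2 2.3.5.1, SAMtools 1.11 and mm10. The sources used here state no annotation, parameters or use of strand. For WT 3, 27 symbols had been stored as dates and were taken by row from the other files.

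FPKM keeps no counts, so absolute depth is unknown. At 821 low genes (mean under 0.3 FPKM), the ratios to WT 1 were shifted by trial depths. The depth kept was the one that put most of them within 0.02 (log2) of a ratio of whole numbers up to 6. It was 1.04 to 1.31 times that of WT 1, with 72.1% to 77.3% of the shifted ratios inside that limit. The shift was chosen to make this share highest, and the share by chance was not tested. The spread between libraries gave the precision.

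Tests used log2(FPKM + 1), which understates fold changes of low genes. The 13215 genes whose mean reached 1 FPKM were fitted with limma 3.58.1 in R 4.3.3 (eBayes with trend, two-sided, no covariate, Benjamini-Hochberg at 0.05). Ratios within a library were compared with exact permutation tests in scipy 1.17.1. Positions came from GENCODE M21 on GRCm38, the same assembly as mm10. The fit was tested on simulated data. The 8 genes, the lists and the tests were chosen with earlier results of these data known. Named are the 8 genes, Cyfip2, up to 3 genes of smallest p per pathway list and, for the 3 most variable of the 8, the gene nearest in pattern; exceptions are stated, and a few items that these rules select are not reported here. Of the 13 anchoring genes listed, 12 were found. Alternatives were other pseudocounts (0.1 and 0.01), filters (none, 0.1 and 5 FPKM), scalings and variance models, the replicate number as a block, and each library left out.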

Additional observations from a re-analysis of the deposited data

How the results depend on the processing

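Over 16 alternative fits, 0 of the 8 receptor genes were called by limma in each. The lowest adjusted p was 0.552 for Gabrr2 and 0.569 for Glra1, and Glra1 reached an unadjusted p of 0.0382 without the filter. Gabrr1, Gabrr2, Gabrr3 and Glra1 stayed below 0 in all 16 fits. The filters, the variance models and the replicate block cannot alter a fold change here, so the signs in those fits were fixed beforehand. All fits also reuse the same libraries, and Gabrr1 came to -0.0009 without CKO 3. Signs turned, with a library left out, for Glra2 (-0.049 to 0.042), Glra3 (-0.103 to 0.098), Glra4 (-0.22 to 0.099) and Glrb (-0.025 to 0.015), and with quantile normalization for Glrb (0.00071); the cause was not tested. Glra4 was below the minimum mean of 5 FPKM and has no value there. Over all genes, 3 were called in the main comparison, 25 without a filter, 1 without the variance trend and 1 to 4 with a library left out (1 without WT 2). The log2 difference of summed alpha over Glrb ran from -0.073 to 0.0058 and that of Glra3 over Glra2 from -0.16 to 0.15 with a library left out, turning sign without CKO 2 for the first and without CKO 1 or WT 3 for the second. Same-numbered CKO and WT libraries had deviations correlated at 0.072, 0.0063 and 0.1, and differently numbered ones at -0.119 to 0.036. CKO 1 and CKO 3 correlated best with the WT library of the same number, while CKO 2 correlated best with WT 1. These values do not settle whether the numbers pair samples, and the main fit did not pair them. With the replicate block, 2 genes were called and 0 of the 8. Absolute depth is unknown, so no counting error could be set for low values such as those of Glra4.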
